A study of Mus musculus with 6 samples.

Results

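This account follows 10 genes that encode peptide transmitters and hormones of the hypothalamus, the brain region just in front of and below the midbrain: Hcrt, Pmch, Npvf, Oxt, Avp, Pomc, Agrp, Trh, Cartpt and Gal. The genes were chosen by name, with their levels in these same libraries already known, so their levels and fold changes are given as a description and carry no test. Of the 10, 9 had a row in the table of 19251 genes and all 9 passed the filter on low counts, while Agrp is not analysed here. The libraries were made from polyadenylated RNA of the substantia nigra, the midbrain nucleus whose dopaminergic neurons are lost in Parkinson's disease, in C57BL/6 mice with the genotype label rAAV-A53T-aSynuclein, a recombinant adeno-associated virus that carries mutant human alpha-synuclein. The 3 intermittent fasting libraries came from mice that went without food for 24 hours on 3 days a week over 10 weeks, and the 3 ad libitum libraries from mice that were fed freely for the same 10 weeks. Both groups carried the virus and were allotted 2 weeks after surgery, and no group without the virus is used here. For the age and sex of the mice, the promoter that drives the transgene, pooling of tissue and how long after a fast it was taken, nothing is given in the sources used here.

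Neuropeptides are cut from larger precursor proteins by convertase enzymes, packed into dense-core granules and released to act on G protein-coupled receptors. Hcrt encodes the precursor of the orexins, which sustain wakefulness and food seeking, and Pmch that of melanin-concentrating hormone, which promotes feeding and sleep; both are made by separate neurons of the lateral hypothalamus whose axons reach far into the brain. In the arcuate nucleus, neurons with Agrp drive feeding and those with Pomc and Cartpt restrain it, and fasting is known to shift their balance. An mRNA level in a tissue block reports mainly on the cell bodies it holds, and in bulk tissue a change in the number of such cells and a change in RNA per cell cannot be told apart.

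Total counts ran from 42990234 to 46594066 in the fasting libraries and from 46337950 to 48179706 in the ad libitum libraries. In the edgeR fit over 19109 genes, 95 were called at an adjusted p below 0.05, which is 0.497% of genes tested, with 28 higher and 67 lower under fasting. With library totals alone in place of TMM scaling the split was 8 higher and 2 lower. Dopaminergic markers, all 10 of which had a row, were present in each library, with summed levels of 864 to 1586 CPM under fasting (CPM, counts scaled to the TMM-adjusted size of each library) and 894 to 2243 CPM ad libitum, so the labelled tissue was represented. Th, the enzyme that starts dopamine synthesis, was at 93.7 to 189 CPM under fasting and 86.3 to 236 CPM ad libitum, and Slc6a3, the dopamine transporter, at 180 to 403 CPM under fasting and 240 to 653 CPM ad libitum. Thalamic marker sums were 1224 to 1922 CPM under fasting and 290 to 1826 CPM ad libitum, and all 7 thalamic markers were lowest in ad libitum replicate 2. In that same library the cholinergic marker sum was 95.1 CPM, against 10.5 CPM in each of the other ad libitum libraries and 12.05 to 19.4 CPM under fasting. Whether the libraries held different amounts of neighbouring regions was not tested.

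None of the 9 neuropeptide genes was called by edgeR, beside 0.497% of all genes tested, and 2 of them, Npvf and Gal, had an unadjusted p below 0.05, beside 20.4% of all genes tested. DESeq2 called 2, again Npvf and Gal, beside 7.4% of the genes it gave an adjusted p. Since the genes were chosen on these values, nothing is read from these counts. Their fold changes were positive in 6 and negative in 3, with a median log2 fold change of 0.44 against -0.00498 over all genes tested. The genes varied widely between libraries of the same diet. Their median within-group SD was 1.45 on the log2 scale, against 0.15 over all genes tested. In 7 of the 9, the highest library lay at least 10-fold above the lowest on the log2 CPM scale, which was so for 1.48% of all genes tested; these ranges were known when the genes were chosen, so nothing is read from that count. Pomc and Cartpt, with a log2 range of 1.55 and 2.06, fell short of that range, and Avp, at 3.58, was the closest of those that reached it. Ad libitum replicate 2 held the highest level of 3 of the genes, fasting replicate 1 of 2 and fasting replicate 3 of 4, while the lowest level was in ad libitum replicate 1 for 4, ad libitum replicate 3 for 3 and fasting replicate 2 for 2.

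**Figure D1:**
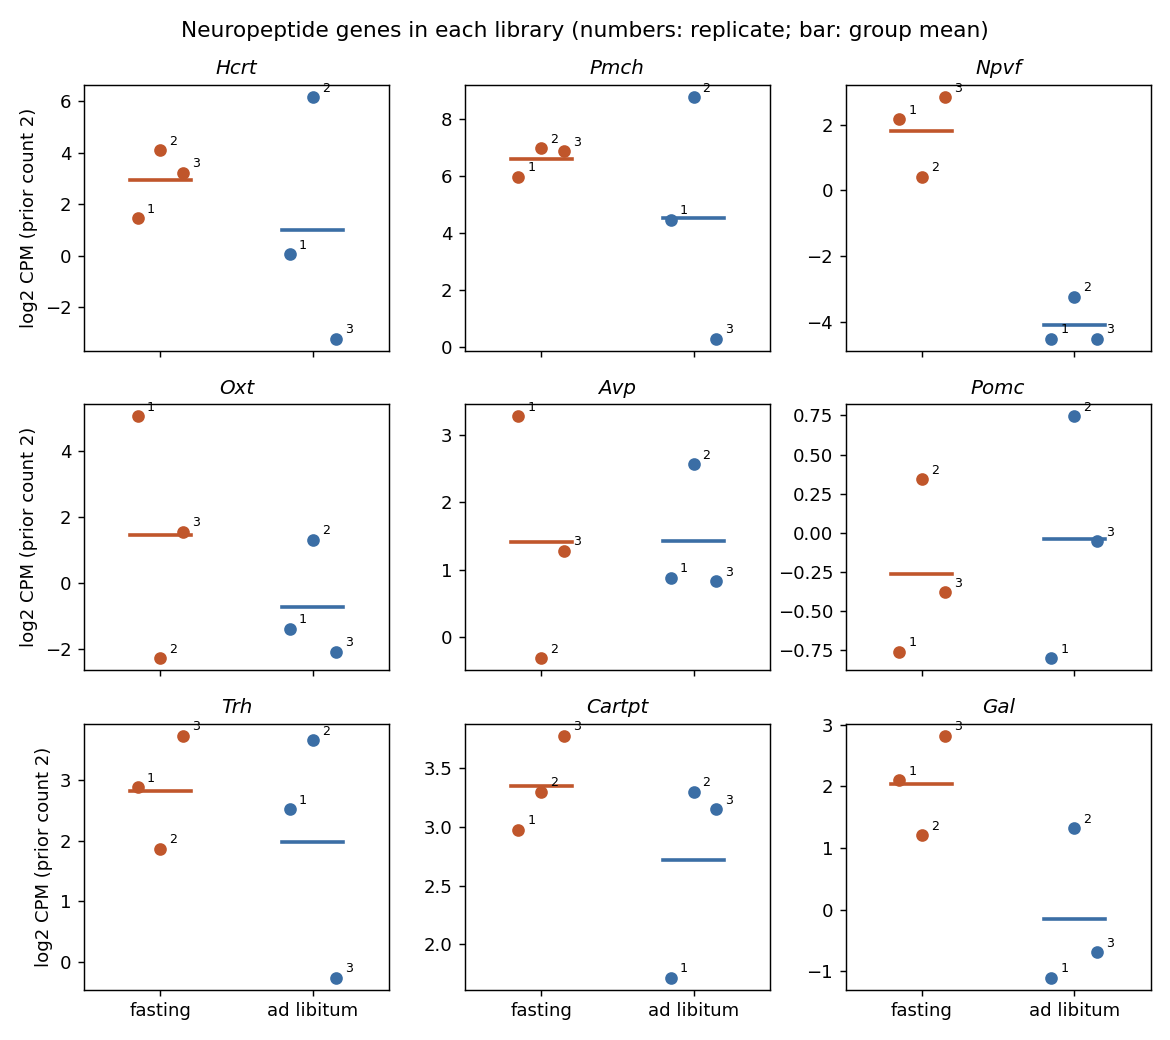
Log2 CPM (y axis, prior count 2) of each neuropeptide gene in the 3 fasting libraries (left, orange) and 3 ad libitum libraries (right, blue), numbered by replicate, with a bar at each group mean. Npvf is the gene whose groups do not overlap, while Hcrt and Pmch have their highest and lowest libraries both in the ad libitum group.

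The promoters of Pmch and Hcrt are shown first because the libraries stood in the same order for both genes. Each window runs from 250 bases before to 50 bases after the annotated start and comes from RefSeq on GRCm38.p6, another build than that of the counts; all 9 genes with a row had such a window. Capitals mark matches to 5 motifs searched on both strands, TATAAA (the TATA box), CACGTG (an E-box), AGGTCA (a nuclear receptor site), TAATTA (a homeodomain core) and TGACGT (part of a cAMP response element), none of which overlap another motif in the windows printed. A match describes the letters and not a bound site. The Pmch window is chr10:88090822-88091121 on the plus strand and the Hcrt window chr11:100762882-100763181 on the minus strand.
Pmch: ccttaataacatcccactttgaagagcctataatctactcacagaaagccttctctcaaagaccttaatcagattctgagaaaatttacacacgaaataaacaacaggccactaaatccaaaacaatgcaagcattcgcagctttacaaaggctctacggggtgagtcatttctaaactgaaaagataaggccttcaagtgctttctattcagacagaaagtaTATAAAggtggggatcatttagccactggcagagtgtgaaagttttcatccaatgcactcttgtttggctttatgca
Hcrt: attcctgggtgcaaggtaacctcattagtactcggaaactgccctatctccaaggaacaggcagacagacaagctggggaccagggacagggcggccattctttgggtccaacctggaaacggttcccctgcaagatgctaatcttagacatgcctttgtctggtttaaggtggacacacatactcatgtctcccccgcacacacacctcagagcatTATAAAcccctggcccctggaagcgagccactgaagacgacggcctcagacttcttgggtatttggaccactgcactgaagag
Each held 1 match, to TATAAA, at -27 from the start in Pmch and at -33 in Hcrt. That motif occurs in 13.6% of 32851 promoter windows of the same length.

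Pmch (ENSMUSG00000035383) was at 62.2, 125 and 115 CPM in fasting replicates 1, 2 and 3, against 22.0, 432 and 1.18 CPM in ad libitum replicates 1, 2 and 3. The fasting libraries sat close together and between ad libitum replicate 2, which was above all of them, and the other ad libitum libraries, which were below all of them. The means were 101 ± 33.9 CPM under fasting and 152 ± 243 CPM ad libitum (SD, n = 3 each). The log2 fold change of -0.59 turned to 3.11 once ad libitum replicate 2 was left out. Mean log2 CPM over all libraries stood the other way round, at 6.59 under fasting and 4.50 ad libitum, so the direction for Pmch rested on 1 library and on the scale. On the opposite strand Pmch overlaps Parpbp, and whether counting used strand is not given; Parpbp was at 0.763 to 1.34 CPM under fasting and at 0.296 to 2.46 CPM ad libitum.

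Hcrt (ENSMUSG00000045471) was at 2.71, 17.2 and 9.28 CPM in fasting replicates 1, 2 and 3, against 0.995, 71.5 and 0.0641 CPM in ad libitum replicates 1, 2 and 3. Its libraries stood in the same order as those of Pmch, from ad libitum replicate 2 at the top, through fasting replicates 2, 3 and 1, to ad libitum replicates 1 and 3. The lowest value rests on 3 counts, and the highest on 3462. The means were 9.73 ± 7.26 CPM under fasting and 24.2 ± 41.0 CPM ad libitum (SD, n = 3 each), with a log2 fold change of -1.32 that became 4.18 without ad libitum replicate 2. The mean log2 CPM was 2.93 under fasting and 0.999 ad libitum, again opposite in sign to the fold change.

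Although ordered alike, the orexin and melanin-concentrating hormone genes did not keep a fixed proportion. Hcrt made up 4.17%, 12.1% and 7.45% of the summed Hcrt and Pmch counts in fasting replicates 1, 2 and 3. In the ad libitum group the share was 4.33%, 14.2% and 5.17% in replicates 1, 2 and 3. The libraries with the most Pmch thus also had the largest Hcrt share, with exact 95% binomial intervals of 11.3% to 12.9% in fasting replicate 2 and 13.8% to 14.7% in ad libitum replicate 2 that lie above those of fasting replicate 1 (3.46% to 4.97%), fasting replicate 3 (6.79% to 8.16%) and ad libitum replicate 1 (3.20% to 5.71%). Ad libitum replicate 3, with 58 counts in all, had an interval of 1.08% to 14.4% that spans all these shares. These intervals cover counting error only.

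**Figure D2:**
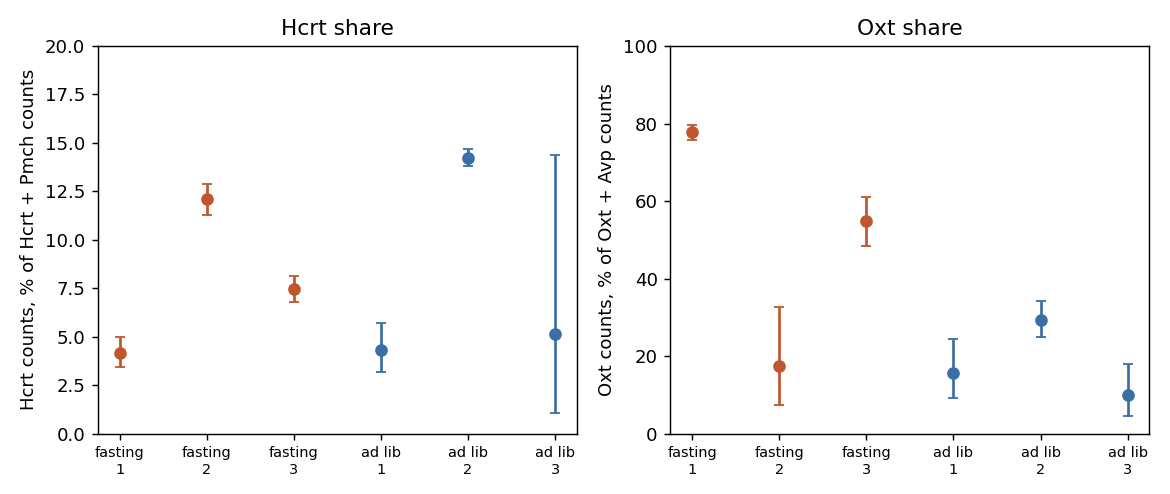
Share of Hcrt in the Hcrt and Pmch counts (left panel, y axis in % from 0 to 20) and of Oxt in the Oxt and Avp counts (right panel, y axis in % from 0 to 100) in each fasting (orange) and ad libitum (blue) library, with exact 95% binomial intervals as bars. The Hcrt share is largest in ad libitum replicate 2 at 14.2% and the Oxt share in fasting replicate 1 at 77.7%.

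Npvf encodes the precursor of RFamide-related peptides, made by neurons of the dorsomedial hypothalamus and known for restraining reproductive hormone release. Its promoter is shown because Npvf was the gene whose fasting and ad libitum libraries did not overlap. The window is chr6:50654396-50654695 on the minus strand of GRCm38.p6.
Npvf: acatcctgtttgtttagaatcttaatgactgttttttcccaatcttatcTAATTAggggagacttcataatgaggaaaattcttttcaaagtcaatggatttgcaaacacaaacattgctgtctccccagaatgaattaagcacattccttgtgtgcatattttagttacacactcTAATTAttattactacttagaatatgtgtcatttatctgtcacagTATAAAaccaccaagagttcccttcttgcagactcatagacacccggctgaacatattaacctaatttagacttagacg
It held TATAAA at -29 and TAATTA at -201 and -74 from the start, and TAATTA occurs in 5.29% of all such windows.

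Npvf (ENSMUSG00000029831) had 197, 56 and 337 counts in fasting replicates 1, 2 and 3, against 0, 3 and 0 counts in ad libitum replicates 1, 2 and 3. That is 4.48, 1.29 and 7.19 CPM under fasting and 0, 0.062 and 0 CPM ad libitum, where 0 counts allow up to 0.0635 CPM in replicate 1 and 0.0641 CPM in replicate 3. All fasting libraries lay above all ad libitum libraries, as they did for 12.5% of all genes tested, and no neuropeptide gene had the fasting libraries all below, as 15.0% of all genes did. From 590 summed counts under fasting and 3 ad libitum, the ratio of scaled counts was 209, with an exact 95% counting interval of 71.1 to 1016 that leaves out the spread between libraries. Its level did not follow that of Pmch or Hcrt, since ad libitum replicate 2, the highest library for both, had 3 Npvf counts.

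The ependymal markers Ccdc153 and Tmem212, genes of the ciliated cells that line the ventricles, are given beside Npvf because their fasting and ad libitum libraries did not overlap either. Tmem212 was chosen after its values were seen. Ccdc153 was at 4.68, 0.855 and 6.78 CPM in fasting replicates 1, 2 and 3, against 0.148, 0.413 and 0.0641 CPM ad libitum. Tmem212 was at 2.16, 0.324 and 2.24 CPM under fasting, against 0.0423, 0.103 and 0.0214 CPM ad libitum. The ad libitum values of Tmem212 rest on 2, 5 and 1 counts, and that of Ccdc153 in ad libitum replicate 3 on 3 counts. Neither was called (edgeR adjusted p = 0.102 for Ccdc153 and 0.0755 for Tmem212), and both had their highest levels in fasting replicates 1 and 3, as Npvf did. Of the 7 ependymal and tanycyte markers 6 had a row and 0 were called by edgeR. Their median log2 fold change was 0.52, and 3 had an edgeR unadjusted p below 0.05, beside 20.4% of all genes tested. All fasting libraries lay above all ad libitum ones in 2 of the 6, beside 12.5% of all genes tested. The list genes of highest level overlapped between diets: Dio2 was at 39.4 to 43.8 CPM under fasting and 27.6 to 43.2 CPM ad libitum, Rarres2 at 4.35 to 7.83 CPM under fasting and 3.09 to 4.94 CPM ad libitum, and Crym at 0.485 to 4.41 CPM under fasting and 0.889 to 20.3 CPM ad libitum. The summed level of the list was 58.5 to 76.5 CPM under fasting and 45.5 to 71.6 CPM ad libitum, and none of the 6 was at 0. Dio2 was the largest part of that sum in every library, so the sum says little about Ccdc153 and Tmem212. The ciliary regulator Foxj1 overlapped between diets, at 11.3 to 15.8 CPM under fasting and 11.7 to 14.6 CPM ad libitum. The part of these cells in the Npvf result was not tested.

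Oxt and Avp encode oxytocin and vasopressin with their neurophysin carriers, and lie next to each other on chromosome 2 on opposite strands. Oxytocin acts in birth, milk release and social behaviour, and vasopressin in water balance. Both are made by large neurons of the paraventricular and supraoptic nuclei. Their promoters are shown side by side because the genes are neighbours whose highest library was the same while their proportion was not. The Oxt window is chr2:130575919-130576218 on the plus strand and the Avp window chr2:130582539-130582838 on the minus strand of GRCm38.p6.
Oxt: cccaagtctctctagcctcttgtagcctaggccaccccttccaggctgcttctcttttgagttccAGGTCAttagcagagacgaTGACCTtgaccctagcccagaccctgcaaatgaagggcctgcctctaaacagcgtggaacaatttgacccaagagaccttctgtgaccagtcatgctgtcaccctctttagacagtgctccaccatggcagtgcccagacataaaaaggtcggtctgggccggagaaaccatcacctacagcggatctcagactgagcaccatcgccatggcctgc
Avp: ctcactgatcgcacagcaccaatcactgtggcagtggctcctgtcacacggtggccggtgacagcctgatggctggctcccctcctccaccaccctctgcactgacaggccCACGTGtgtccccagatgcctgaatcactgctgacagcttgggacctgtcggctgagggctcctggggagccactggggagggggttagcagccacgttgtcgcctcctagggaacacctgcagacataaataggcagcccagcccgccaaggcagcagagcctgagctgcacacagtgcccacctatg
Oxt held AGGTCA at -185 and, on the other strand, at -166, a motif found in 16.3% of windows, and Avp held CACGTG at -139, found in 7.15% of windows. Neither window held TATAAA.

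Oxt (ENSMUSG00000027301) was at 33.4, 0.162 and 2.90 CPM in fasting replicates 1, 2 and 3, against 0.339, 2.44 and 0.192 CPM in ad libitum replicates 1, 2 and 3. Fasting replicate 1 stood far above the rest and fasting replicate 2, with 7 counts, was the lowest of all 6, so the groups overlapped. The means were 12.1 ± 18.4 CPM under fasting and 0.989 ± 1.26 CPM ad libitum (SD, n = 3 each), and the log2 fold change of 3.61 became 0.62 without fasting replicate 1 and 5.49 without ad libitum replicate 2.

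Avp (ENSMUSG00000037727) was at 9.60, 0.763 and 2.39 CPM in fasting replicates 1, 2 and 3, against 1.80, 5.84 and 1.73 CPM in ad libitum replicates 1, 2 and 3. Its highest and lowest libraries were fasting replicates 1 and 2, as for Oxt. The means were 4.25 ± 4.70 CPM under fasting and 3.12 ± 2.36 CPM ad libitum (SD, n = 3 each), with a log2 fold change of 0.44 that turned to -0.99 without fasting replicate 1 and was 1.26 without ad libitum replicate 2. Mean log2 CPM was nearly equal, at 1.41 under fasting and 1.42 ad libitum.

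The share of Oxt in the summed Oxt and Avp counts was 77.7%, 17.5% and 54.8% in fasting replicates 1, 2 and 3, against 15.8%, 29.4% and 10.0% in ad libitum replicates 1, 2 and 3. The exact 95% binomial interval of fasting replicate 1, 75.7% to 79.5%, and that of fasting replicate 3, 48.4% to 61.1%, lay above those of all other libraries, the highest of which ended at 34.2% in ad libitum replicate 2. In fasting replicate 2 the share rested on 40 counts, with an interval of 7.34% to 32.8%. Here too the intervals cover counting error only and leave out the spread between libraries. The genes share sequence, 21.3% of the 31-base words of the Oxt transcript occurring in other genes, chiefly Avp, and 17.7% of those of Avp occurring in Oxt, so counts could be split between them with some error.

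Pomc encodes the precursor of melanocyte-stimulating hormone, which curbs feeding, and of ACTH and beta-endorphin. Pomc (ENSMUSG00000020660) was at 0.546, 1.23 and 0.725 CPM in fasting replicates 1, 2 and 3, against 0.529, 1.63 and 0.919 CPM in ad libitum replicates 1, 2 and 3. It was the lowest gene on average over the 6 libraries and the one with the smallest range, its highest library being 3.08-fold above its lowest. The diets overlapped, and the log2 fold change of -0.31 became 0.19 without ad libitum replicate 2. Corticotrophs of the anterior pituitary also make Pomc. Of the 9 anterior pituitary markers 3 had a row and 2 were tested. By edgeR 0 were called and 0 had an unadjusted p below 0.05, beside 0.497% and 20.4% of all genes tested. The summed level of the 3 was 0.948 to 1.66 CPM under fasting and 0.385 to 2.33 CPM ad libitum, with Lhb at 0 in ad libitum replicate 1.

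Cartpt encodes the CART peptides, which restrain feeding and are made in the hypothalamus and also in the Edinger-Westphal nucleus of the midbrain. Cartpt (ENSMUSG00000021647) was at 7.82, 9.80 and 13.7 CPM in fasting replicates 1, 2 and 3, against 3.24, 9.81 and 8.83 CPM in ad libitum replicates 1, 2 and 3. Only ad libitum replicate 1 stood below the fasting libraries, and the other libraries overlapped. The log2 fold change was 0.52 and ran from 0.16 to 0.79 with each library left out.

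Trh encodes thyrotropin-releasing hormone, the hypothalamic signal for thyroid-stimulating hormone. Trh (ENSMUSG00000005892) was at 7.34, 3.61 and 13.2 CPM in fasting replicates 1, 2 and 3, against 5.67, 12.6 and 0.791 CPM in ad libitum replicates 1, 2 and 3. The diets interleaved, with ad libitum replicate 3 the low library. The log2 fold change of 0.34 turned to -0.22 without fasting replicate 3 and to -0.18 without ad libitum replicate 3, and was 1.31 without ad libitum replicate 2.

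Gal encodes galanin, an inhibitory peptide found in hypothalamic and brainstem neurons. Gal (ENSMUSG00000024907) was at 4.25, 2.27 and 7.02 CPM in fasting replicates 1, 2 and 3, against 0.423, 2.46 and 0.577 CPM in ad libitum replicates 1, 2 and 3. Ad libitum replicate 2 lay just above fasting replicate 2 and the remaining ad libitum libraries below all fasting ones. The means were 4.51 ± 2.39 CPM under fasting and 1.15 ± 1.13 CPM ad libitum (SD, n = 3 each). Its log2 fold change, 1.96, stayed positive with each library left out, from 1.49 without fasting replicate 3 to 3.16 without ad libitum replicate 2.

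The groups separated in more genes once ad libitum replicate 2 was left out. All fasting libraries then lay above both remaining ad libitum libraries in 4 of the 9 genes, Hcrt, Pmch, Npvf and Gal, beside 17.8% of all genes tested under the same rule. The count was 3 without fasting replicate 2 (Npvf, Oxt and Gal, beside 18.6% of all genes tested) and 1, Npvf, without any other single library, beside 15.7% of all genes without fasting replicate 1, 15.2% without fasting replicate 3, 23.1% without ad libitum replicate 1 and 17.2% without ad libitum replicate 3. This way of counting was added after the data were seen. Ad libitum replicate 2 held the highest ad libitum level of Hcrt, Pmch and Gal, so leaving it out could only widen their separation. The genes were also chosen with these values known, so nothing is read from these counts.

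**Figure D3:**
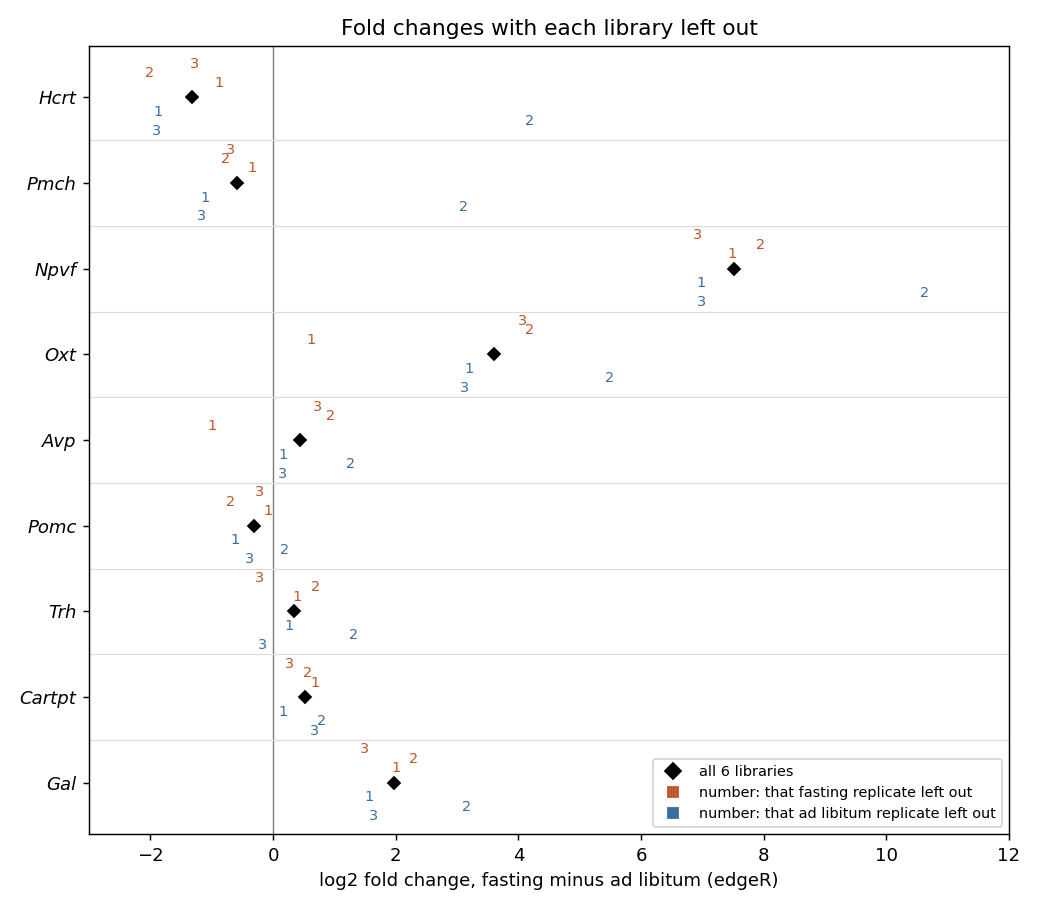
Log2 fold change of each neuropeptide gene, fasting minus ad libitum (x axis, edgeR), with all 6 libraries (diamond) and with each library left out (number of the replicate left out, fasting in orange above, ad libitum in blue below). Hcrt moves from -1.32 to 4.18 and Pmch from -0.59 to 3.11 without ad libitum replicate 2; the Npvf value without that library is set against 0 counts and depends on the fit.

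Per length, Pmch had the highest median level of the genes in both groups. The median over 3 libraries was 154 CPM per kilobase of the longest GENCODE M21 transcript under fasting and 29.4 ad libitum. On that scale Hcrt followed under fasting at 15.8 CPM per kilobase, and Cartpt, at 7.92, came next. Npvf, Oxt, Gal and Trh were at 5.31 to 5.52 CPM per kilobase, closer together than their spread between libraries, with Avp at 4.14 and Pomc at 0.695. Ad libitum, Cartpt was second at 7.13 CPM per kilobase, before Trh at 4.10, Avp at 3.12 and Hcrt at 1.70. Pomc, Gal and Oxt were at 0.881, 0.732 and 0.631 CPM per kilobase and Npvf at 0.

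Genes with the most similar profile were sought among 15553 genes of at least 1 CPM by the root-mean-square (RMS) difference of log2 CPM over the 6 libraries, each gene centred on its own mean. This is a description over 6 libraries whose composition and depth all genes share. Pmch was the closest gene to Hcrt and Hcrt to Pmch, with an RMS difference of 0.71 against an RMS spread of 3.01 for Hcrt and 2.68 for Pmch about their own means. Next to Hcrt came the neurokinin B gene Tac2 (1.69) and the homeobox gene Lhx6 (1.76). Dlx6 (1.19), a homeobox gene of GABAergic neurons, was also among the 3 genes closest to Pmch. Trh was closest to Dlx5 (0.28), the endopeptidase-like gene Ecel1 (0.48) and Dlx1 (0.49), and Dlx5 was lowest in ad libitum replicate 3, at 0.171 CPM, as Trh was.

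Npvf was closest to Ccdc153 (RMS difference 1.08), Fam216b (1.30) and the axonemal dynein gene Dnah3 (1.41). Oxt was closest to Cdhr4 (1.5), then Avp (1.62) and Lrrc74b (1.65). For Gal the nearest genes were Crocc2, Lrrc23 (both 0.41) and the calcitonin receptor gene Calcr (0.43), which was at 6.44, 5.25 and 9.23 CPM in fasting replicates 1, 2 and 3, against 1.35, 3.43 and 1.28 CPM in ad libitum replicates 1, 2 and 3. Avp was closest to Gm3883 (0.57), Atp6ap1l (0.65) and Gm48417 (0.67). Cartpt, with the smallest spread of those compared (0.64), was closest to Cabcoco1 (0.14), a second gene listed under the symbol Gcat (0.14) and Gm3164 (0.22).

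Transcription factors that pattern the hypothalamus are listed beside the peptides because they mark hypothalamic tissue. Of 18 listed, 15 had a row, 14 were tested and 0 were called (edgeR), with 0 at an unadjusted p below 0.05, 0 called by DESeq2 and a median log2 fold change of 1.01 against -0.00498 over all genes. Over all genes tested by edgeR, 0.497% were called and 20.4% had an unadjusted p below 0.05. DESeq2 called 7.4% of the genes it gave an adjusted p. In 13 of the 15, the lowest library was ad libitum replicate 1 or 3. The same held for 10 of 13 receptors of the peptides and 7 of 9 mammillary and subthalamic regulators, both described below. It held for 6 of 14 peptide processing genes and 7 of 12 other hypothalamic peptides. Among markers it held for 4 of 6 ependymal and tanycyte, 3 of 3 anterior pituitary and 2 of 6 choroid plexus genes. The count was 2 of 5 for cholinergic and 3 of 10 for dopaminergic markers. For 7 thalamic, 3 serotonergic, 8 microglial and 8 oligodendrocyte markers it was 0. The share over all genes was not counted. Nkx2-1, which specifies the ventral hypothalamus, was at 4.64, 8.32 and 8.85 CPM in fasting replicates 1, 2 and 3, against 0.953, 17.4 and 4.25 CPM in ad libitum replicates 1, 2 and 3. Otp and Sim1, required for the oxytocin and vasopressin neurons, were chosen after their values were seen. Otp was at 10.6, 6.54 and 10.5 CPM under fasting, against 0.995, 8.22 and 0.812 CPM ad libitum (log2 fold change 1.46, SE 0.95, edgeR adjusted p = 0.451), and without ad libitum replicate 2 it was the 1 regulator called (log2 fold change 3.34, edgeR adjusted p = 0.0372). Ad libitum replicate 2 held the highest ad libitum level of Otp, and 45 genes over all were called without it. Sim1 was at 8.50, 7.63 and 7.72 CPM under fasting, against 0.783, 6.26 and 1.71 CPM ad libitum, without overlap (edgeR adjusted p = 0.343). All fasting libraries lay above all ad libitum ones in 2 of the 14 regulators tested, beside 12.5% of all genes tested.

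The 3 regulators of highest level also overlapped between diets. Six3 was at 34.3, 13.8 and 46.3 CPM under fasting, against 46.6, 27.2 and 32.2 CPM ad libitum. Lhx9 was at 16.5, 10.8 and 9.77 CPM under fasting, against 21.8, 4.38 and 23.9 CPM ad libitum. Dlx1 was at 15.1, 9.02 and 22.5 CPM under fasting, against 8.43, 13.7 and 0.748 CPM ad libitum. With these included, the summed level of the list was 71.9 to 130 CPM under fasting and 67.5 to 108 CPM ad libitum. Six3 and Lhx9 held most of the sum in ad libitum replicates 1 (84.7 CPM) and 3 (67.5 CPM). The overlap of the sums therefore says little about the other regulators. Bsx and Six6 were at 0 in ad libitum replicate 1, Hmx3 in replicate 3 and Fezf1 in both. The part of hypothalamic tissue in the neuropeptide levels was not tested.

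**Figure D4:**
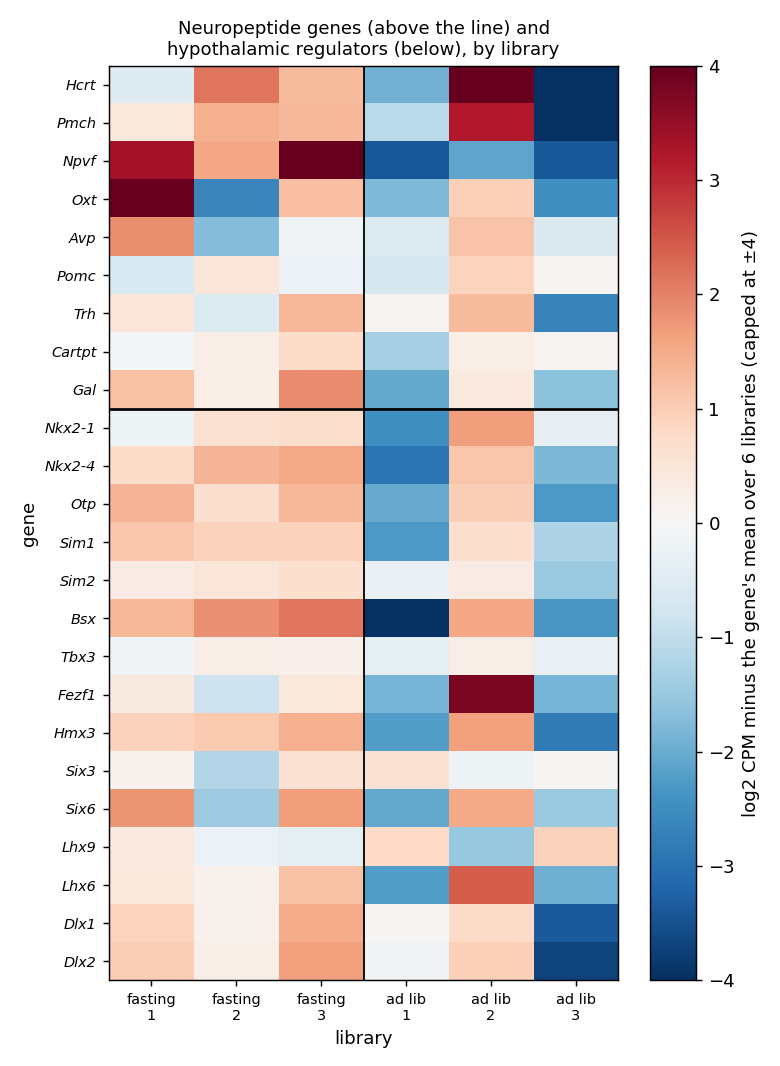
Log2 CPM of each gene minus its mean over the 6 libraries (colour, capped at 4 in either direction) for the neuropeptide genes (above the line) and the hypothalamic regulators (below), with fasting libraries left of ad libitum libraries. Ad libitum replicates 1 and 3 are blue for most regulators, 13 of 15 having their lowest value there. So did 7 of 9 mammillary and subthalamic regulators, which are not shown.

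Regulators of the adjoining mammillary and subthalamic nuclei, 9 of 9 with a row, had 0 called and 0 at an unadjusted p below 0.05 by edgeR. The shares over all genes tested were 0.497% and 20.4%. Their own median log2 fold change was 0.53. Their summed level was 65.2 to 99.4 CPM under fasting and 36.1 to 94.9 CPM ad libitum. Lhx1 was at 8.16 to 12.9 CPM under fasting and 8.76 to 14.8 CPM ad libitum, Foxa1 at 8.25 to 14.7 CPM under fasting and 5.80 to 14.4 CPM ad libitum, and Lhx5 at 5.53 to 9.25 CPM under fasting and 6.56 to 9.30 CPM ad libitum. Of these 9, Lmx1a and Foxa1 are also known in dopaminergic neurons, and Nkx2-1 belongs to both lists.

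Among 18 other peptides of the hypothalamus, 12 had a row and 0 were called by edgeR, beside 0.497% of all genes tested. An edgeR unadjusted p below 0.05 was found in 2, Crh and Ghrh, beside 20.4% of all genes tested. The median log2 fold change was -0.33. In 8 of the 12 the highest library was ad libitum replicate 2. That library was also the highest for 8 of 8 oligodendrocyte and 6 of 8 microglial markers, but for 0 of 10 dopaminergic markers. The share over all genes was not counted. Penk, the enkephalin precursor, was at 24.2, 42.0 and 37.1 CPM in fasting replicates 1, 2 and 3, against 31.7, 234 and 27.8 CPM in ad libitum replicates 1, 2 and 3. Adcyap1, which encodes the peptide PACAP, was at 47.3, 75.6 and 50.5 CPM under fasting, against 21.3, 41.2 and 48.6 CPM ad libitum. Sst, the somatostatin gene, was at 39.0, 29.3 and 51.2 CPM under fasting, against 33.8, 61.1 and 20.5 CPM ad libitum. Pdyn, the dynorphin precursor that orexin neurons also make, was at 6.25, 5.16 and 11.6 CPM under fasting, against 3.07, 26.1 and 5.34 CPM ad libitum. Npy, which arcuate neurons with Agrp co-release and cortical and striatal interneurons also make, was at 4.25, 2.75 and 6.20 CPM under fasting, against 5.59, 6.65 and 1.88 CPM ad libitum. Ghrh, the growth hormone-releasing hormone gene, was at 0.887, 0.416 and 1.07 CPM under fasting, against 0.212, 0.268 and 0.256 CPM ad libitum (edgeR adjusted p = 0.0931), and Crh at 1.0, 2.01 and 0.789 CPM, against 2.82, 2.33 and 3.12 CPM (edgeR adjusted p = 0.146). Npy, Ghrh and Crh were chosen after their values were seen.

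The receptors of these peptides were all below 10 CPM in every library. Of 16 listed, 13 had a row and 0 were called by edgeR. An edgeR unadjusted p below 0.05 was found in 4, beside 20.4% of all genes tested. Of the 13 fold changes 8 were positive and 5 negative, and the median on the log2 scale was 0.40. The orexin receptor Hcrtr1 was at 3.66, 6.66 and 5.07 CPM in fasting replicates 1, 2 and 3, against 6.01, 4.54 and 8.46 CPM in ad libitum replicates 1, 2 and 3 (edgeR adjusted p = 0.603). The other orexin receptor, Hcrtr2, was at 4.89, 5.94 and 5.48 CPM under fasting, against 4.06, 6.96 and 7.59 CPM ad libitum (edgeR adjusted p = 0.685). Mchr1, the receptor of melanin-concentrating hormone, was at 7.30, 7.49 and 7.76 CPM under fasting, against 6.73, 9.35 and 6.77 CPM ad libitum (log2 fold change -0.02, SE 0.15, edgeR adjusted p = 0.953). Trhr was at 6.62, 7.91 and 7.21 CPM under fasting, against 3.60, 6.67 and 6.75 CPM ad libitum (edgeR adjusted p = 0.463).

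Of the receptors with an unadjusted p below 0.05, Npffr1, the receptor of the Npvf peptides, was at 4.75, 3.51 and 3.84 CPM under fasting, against 2.29, 2.81 and 1.69 CPM ad libitum, without overlap. Its log2 fold change was 0.83 (SE 0.22), and it did not pass with edgeR (adjusted p = 0.109) but did with DESeq2 (adjusted p = 0.0191). The melanocortin receptor Mc3r was at 1.59, 1.78 and 1.68 CPM under fasting, against 0.445, 0.640 and 1.07 CPM ad libitum, without overlap. Its log2 fold change was 1.23 (SE 0.32), not called by edgeR (adjusted p = 0.104) but called by DESeq2 (adjusted p = 0.0202). Another melanocortin receptor, Mc5r, went the other way, at 0.455, 0.647 and 0.533 CPM under fasting, against 0.656, 1.01 and 1.5 CPM ad libitum, also without overlap. Its log2 fold change was -0.95 (SE 0.34), not called by edgeR (adjusted p = 0.188). The galanin receptor Galr1 was at 2.21, 3.17 and 3.07 CPM under fasting, against 1.14, 2.29 and 1.54 CPM ad libitum, with overlap (log2 fold change 0.76, SE 0.28, edgeR adjusted p = 0.198). These 4 were chosen after their values were seen. All fasting libraries lay above all ad libitum ones in 2 of the 13 receptors, beside 12.5% of all genes tested. They lay below in 1, beside 15.0% of all genes tested. DESeq2 called 2 of the receptors, Npffr1 and Mc3r, beside 7.4% of the genes it gave an adjusted p. The oxytocin receptor Oxtr was called without ad libitum replicate 2 (log2 fold change 1.39, edgeR adjusted p = 0.0441), and the thyrotropin-releasing hormone receptor Trhr2 without ad libitum replicate 1 (log2 fold change 1.10, edgeR adjusted p = 0.0361). Each call came after leaving out the library that held the gene's highest level, 5.95 CPM for Oxtr and 4.68 CPM for Trhr2. These settings called 45 and 1187 genes over all, so the 2 calls are no support for a difference by diet. Both receptors were also chosen after their values were seen. With all libraries their edgeR adjusted p was 0.546 for Oxtr and 0.588 for Trhr2.

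Genes that process precursors and build dense-core granules, which most peptide and catecholamine neurons use, were measured at much higher counts. Of 14, all had a row and 0 were called by edgeR. An edgeR unadjusted p below 0.05 was found in 5, beside 20.4% of all genes tested. A positive log2 fold change was found in 12, and the median was 0.14. Their summed level was 5136 to 5352 CPM under fasting and 4385 to 4736 CPM ad libitum. Cpe, the carboxypeptidase that trims precursors, was at 2350, 2000 and 2200 CPM in fasting replicates 1, 2 and 3, against 2040, 1840 and 2030 CPM in ad libitum replicates 1, 2 and 3 (log2 fold change 0.15, SE 0.08, edgeR adjusted p = 0.353). Scg2, a granin, was at 540, 672 and 552 CPM under fasting, against 410, 514 and 492 CPM ad libitum (0.32, SE 0.12, edgeR adjusted p = 0.199). Pcsk1n, an inhibitor of the convertase Pcsk1, was at 433, 495 and 460 CPM under fasting, against 400, 413 and 409 CPM ad libitum (0.18, SE 0.07, edgeR adjusted p = 0.186). Cadps, which primes granules for release, was at 422, 440 and 416 CPM under fasting, against 471, 369 and 407 CPM ad libitum (edgeR adjusted p = 0.859).

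DESeq2 called 3 of the 14 processing genes, all higher under fasting, beside 7.4% of all genes, of which 546 were higher and 849 lower. Scg5, the chaperone of the convertase Pcsk2, was at 163, 160 and 153 CPM under fasting, against 135, 116 and 119 CPM ad libitum, without overlap. On the log2 scale fasting was higher by 0.36, SE 0.07 (adjusted p = 0.0708 by edgeR and 0.00164 by DESeq2). Pcsk2 itself was at 426, 266 and 344 CPM under fasting, against 270, 196 and 202 CPM ad libitum, and Pam, which amidates peptides, at 227, 248 and 245 CPM, against 155, 194 and 211 CPM (edgeR adjusted p = 0.167 for Pcsk2 and 0.149 for Pam, DESeq2 adjusted p = 0.0168 and 0.0486). Scg5, Pcsk2 and Pam were chosen after their values were seen. All fasting libraries lay above all ad libitum ones in 4 of the 14 processing genes, beside 12.5% of all genes tested.

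**Figure D5:**
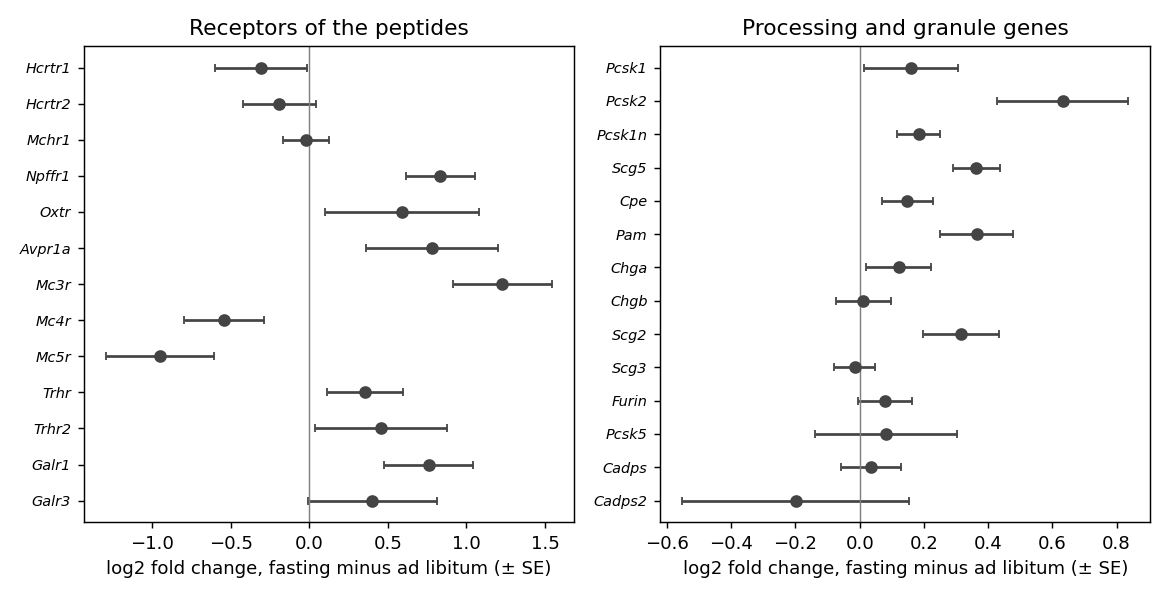
Log2 fold change, fasting minus ad libitum (x axis, point) with its standard error (bar) from edgeR over all 6 libraries, for 13 receptors (left) and 14 processing and granule genes (right). None passed an adjusted p of 0.05; receptors run from -0.95 for Mc5r to 1.23 for Mc3r and processing genes from -0.20 for Cadps2 to 0.63 for Pcsk2.

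Markers of other cells in the block varied as well. Summed choroid plexus markers, 6 of 6 with a row and 0 called (2 at an unadjusted p below 0.05), were at 39.5 to 54.8 CPM under fasting and 30.99 to 118 CPM ad libitum, the highest value being that of ad libitum replicate 2. Serotonergic markers, 3 of 4 with a row and 0 of the 2 tested called (1 at an unadjusted p below 0.05), were at 2.84 to 8.92 CPM under fasting and 3.96 to 27.8 CPM ad libitum. The cholinergic (5 of 7), thalamic (7) and dopaminergic (10) markers had 0 called and 0 at an unadjusted p below 0.05. Microglial and oligodendrocyte markers, 8 of 8 each, had 2 called by edgeR in each list, all lower under fasting: Fcrls, C1qa, Ugt8a and Fa2h. Over all genes tested, 0.497% were called and 20.4% had an unadjusted p below 0.05 by edgeR. Microglial sums were 269 to 274 CPM under fasting and 342 to 469 CPM ad libitum. Oligodendrocyte sums were 9540 to 11982 CPM under fasting and 13603 to 18479 CPM ad libitum. In all 8 genes of each list every fasting library lay below every ad libitum one, as for 15.0% of all genes tested. These lists were chosen with earlier results of these data known. The part of these cells in the levels above was not tested.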

How the data were processed

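Estimated counts per gene, as deposited by the authors, were used for 6 libraries. Salmon, DESeq2 1.40.2 and GRCm39 (mm39) are named in the submitters' processing notes, without role or order. For the Salmon version, annotation, strand setting and rounding, nothing is given in the sources used here. Per the labels' protocols, RNA was extracted with a lipid tissue kit and libraries were directional. Values were already whole, and 0 per-sample columns were unused. Libraries were grouped by title. Fasting was compared with ad libitum over all 19109 genes that passed filterByExpr, with edgeR 4.0.16, whose quasi-likelihood test is two-sided (R 4.3.3) with TMM scaling, robust shrinkage, no covariate and Benjamini-Hochberg adjustment over all genes, called below 0.05. Positive log2 fold changes mean higher under fasting, and CPM were computed on TMM-scaled totals. Standard errors equal the size of the log2 fold change over root F. Nothing says that libraries came from separate animals, so p-values measure the spread between these samples, and permuting 3 against 3 could not give p below 0.1. No pair within a group agreed within counting noise (chi-square per degree of freedom at least 8.19). The neuropeptide genes and the 14 gene lists were chosen with earlier results of these data known. Named genes are the members, the called genes of each list, up to 4 genes of highest level per list, the defining dopaminergic markers and the 3 genes of most similar profile per member. Lists of other cell types are given by their sums and calls, other named genes are stated as chosen later, and 2 genes covered by it are not reported here. Alternatives were DESeq2 1.42.0, other scalings and filters, no robust shrinkage, a replicate block and leaving out each library. The fit was tested on simulated data. Overlaps, shared words of 31 bases and transcript lengths come from GENCODE M21.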

Additional observations from a re-analysis of the deposited data

How the results depend on the processing

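Over all genes, 95 calls became 1395 with DESeq2 (546 higher, 849 lower), 10 with library totals alone, 9 without robust shrinkage and 285 with the replicate block, and ran from 0 to 1187 with each library left out. They were 0 without fasting replicate 1 and without fasting replicate 3 (2452 and 2495 genes at an unadjusted p below 0.05 by edgeR), 68 without fasting replicate 2, and 1187, 45 and 1 without ad libitum replicates 1, 2 and 3. Calls among the neuropeptide genes, 0 in the comparison reported, were 2 with DESeq2 (Npvf and Gal) and 0 to 1 with each library left out, the 1 being Npvf without fasting replicate 2; since the genes were chosen on these values, these counts are no support, and DESeq2 called 7.4% of all genes. Receptor calls were 2 with DESeq2 and 0 to 1 with a library left out. Processing and granule gene calls were 3 with DESeq2, 1 with the replicate block (Pcsk2) and 0 to 1 with a library left out, and hypothalamic regulator calls were 0 to 1. The count of neuropeptide genes with all fasting libraries above all ad libitum ones ran from 1 to 4. Other scalings and filters left these list counts at 0. The cause of these differences was not tested. Of 116 refitted fold changes of single neuropeptide genes, 111 moved by less than the SD within groups, which does not show that they were stable. That SD was wide (3.50 for Hcrt, 3.02 for Pmch and 1.45 for Avp), so some moves across 0 fell within it. Without ad libitum replicate 2, Hcrt moved to 4.18 and Pmch to 3.11, across 0 and by more than that SD. Within it, Avp went from 0.44 to -0.99 without fasting replicate 1, and Pomc from -0.31 to 0.19 without ad libitum replicate 2. Deviations of same-numbered libraries correlated at 0.21, -0.039 and -0.11 for numbers 1, 2 and 3, and those of differently numbered ones at -0.14 to 0.19. With 3 libraries per group, this cannot tell whether replicate numbers pair the libraries. With the replicate block, Hcrt was at 0.94 and Pmch at 1.61 on the log2 scale, against -1.32 and -0.59 without it. Pomc could not be refitted with a mean count of at least 50. Depth limits Npvf, Oxt and Hcrt most, with 0 to 9 counts in some libraries.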
